A study of Homo sapiens with 36 samples.

Results

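EGR1, an immediate-early transcription factor, and 9 genes tied to feedback on the ERK kinases (EGR3, DUSP4, DUSP5, DUSP6, SPRY2, SPRY4, SPRED1, ETV4 and ETV5) were followed in 2 human colorectal adenocarcinoma cell lines. They are 10 of the 60591 genes in the mRNA count table and were found there by symbol. The list was drawn up with results of these data in view, and EGR1 was chosen by its change in HT-29, so that changes of these genes in HT-29 and differences between the lines are given below as a description, with no p-value. Where such values are counted as past the limits used in Caco-2, the count is a description too. In Caco-2 FDR values are given, but they take no account of how the list was drawn up. After a filter on low counts 9 of the 10 genes were tested in each line, all but EGR3, among 16034 genes in Caco-2 and 15812 in HT-29.

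The study exposed Caco-2 and HT-29 cells for 24 h to cobalt(II) chloride (CoCl2, 300 µM) or to an oxyquinoline derivative (OD, 5 µM; Oxy in the labels), both known as inhibitors of the prolyl hydroxylases that destabilise hypoxia-inducible factors (HIF). The 6 groups (each line as control, CoCl2 and OD) held 3 mRNA libraries each, 18 in all. Total counts ran from 12925719 to 22332639 per library. Caco-2 cells had been kept under differentiation conditions for 21 days, and the labels give no such period for HT-29 cells, so that line and culture state cannot be told apart. The labels give 0.5 µl of DMSO per ml of medium for control and OD cells, whereas the study's methods also name DMSO for CoCl2 medium, so a difference in solvent was not settled. All replicates of a line came from that 1 line, the RNA of whole cultures was pooled, and fewer cells of a type and less RNA per cell cannot be told apart.

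ERK, at the end of the RAS, RAF and MEK kinase chain, phosphorylates ETS-family partners of the serum response factor, which sit at CArG boxes and switch on EGR1 within minutes of a stimulus. Active ERK also raises its own brakes: the dual-specificity phosphatases DUSP4, DUSP5 and DUSP6 remove phosphate from ERK, and the Sprouty and SPRED proteins act further up, near RAS and RAF. ETV4 and ETV5 are ETS transcription factors whose genes, like DUSP6, are repressed by Capicua (CIC) until ERK relieves that repression, and intestinal epithelium uses this circuit in growth factor signalling.

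Promoter sequence is shown for EGR1 and DUSP6, the gene whose profile over the 6 groups came nearest to that of EGR1 (below), because it carries the sites through which ERK signals are known to reach such genes. Of the 10 genes, 5 (DUSP6, EGR1, SPRED1, SPRY2 and SPRY4) had an entry in the RefSeq promoter table (GRCh38.p14), and the windows are the 250 bases before the transcription start. For EGR1 (chr5:138465229-138465478, plus strand) capitals mark CArG boxes, and for DUSP6 (chr12:89352502-89352751, minus strand) capitals mark a match to the Capicua octamer. Overlaps with annotated exons of any gene, on either strand, added up to 250 bases in the DUSP6 window and 0 in the EGR1 window. A base in more than 1 exon record was counted each time, and the genes of these exons were not recorded.
EGR1: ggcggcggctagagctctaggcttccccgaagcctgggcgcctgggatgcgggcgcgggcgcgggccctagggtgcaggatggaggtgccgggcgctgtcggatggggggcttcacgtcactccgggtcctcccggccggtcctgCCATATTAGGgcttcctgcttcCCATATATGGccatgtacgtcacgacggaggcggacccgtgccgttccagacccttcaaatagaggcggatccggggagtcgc
DUSP6: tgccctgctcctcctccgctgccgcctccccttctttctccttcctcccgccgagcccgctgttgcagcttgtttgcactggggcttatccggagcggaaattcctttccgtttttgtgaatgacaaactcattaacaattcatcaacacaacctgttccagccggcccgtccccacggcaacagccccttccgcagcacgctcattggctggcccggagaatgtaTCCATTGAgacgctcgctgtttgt
Both strands were searched. EGR1 held 2 CArG boxes, which do not overlap, 105 and 83 bases before the start. Of 35116 promoter windows of that length 1.16% held a CArG box and 0.0313% held 2 or more, and no CArG box was found in the windows of the other 4 genes. The DUSP6 match lay 24 bases before the start, and 3.18% of windows held one of the octamers searched (TGAATGAA, TGAATGGA, TCAATGAA or TCAATGGA). The EGR site GCGNGGGCG was matched in EGR1, SPRY4 and SPRY2 (8.41% of windows) and the HIF core ACGTG or GCGTG in EGR1 and DUSP6 (43.2%). The ETS-type sequence CCGGAA was matched in SPRY2 (14.5%). SPRY2 had more than 1 window, and its EGR and CCGGAA matches lay only in the window at chr13:80341127-80341376. The SPRY4 window (chr5:142324248-142324497) lay inside the SPRY4 gene coordinates given below. Shorter or other ETS sequences were not searched for, so their absence from the other windows was not tested. A match is a run of letters and not a bound site.

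EGR1 (chromosome 5, 138465479 to 138469303, plus strand, GRCh38) moved in opposite directions with CoCl2 in the 2 lines and was lower with OD in both. Levels are given as CPM, counts scaled to a common library total, with library sizes corrected in each line by TMM (the trimmed mean of M values), and changes as log2 fold changes with their standard error (SE). In Caco-2 it stood at 7.10, 8.65 and 8.72 CPM in the controls, at 23.2, 24.5 and 23.3 CPM with CoCl2 and at 4.57, 5.28 and 5.79 CPM with OD. In HT-29 it stood at 124, 158 and 163 CPM in the controls, at 12.8, 10.7 and 10.9 CPM with CoCl2 and at 5.02, 5.59 and 4.68 CPM with OD. No 2 groups of a line overlapped, and the 3 HT-29 controls were the highest of the 18 libraries by a wide margin. EGR1 rose in Caco-2 with CoCl2 by 1.54 on the log2 scale (SE 0.13, 2.90-fold, FDR = 2.05e-10 by edgeR's quasi-likelihood test). With OD its log2 change in Caco-2 was -0.64 (SE 0.15, FDR = 0.000885), which passed the FDR threshold of 0.05 but not the required absolute log2 change of 1. In HT-29 the log2 change was -3.70 (SE 0.09, 13-fold lower) with CoCl2 and -4.87 (SE 0.10, 29.2-fold lower) with OD. Treated HT-29 cells thus held EGR1 at 11.4 ± 1.17 CPM (SD, n = 3) and 5.10 ± 0.457 CPM, the latter next to the 5.21 ± 0.609 CPM of OD-treated Caco-2.

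EGR3 (chromosome 8, 22687659 to 22693480, minus strand), a relative of EGR1 that binds the same DNA site, had 0 to 3 counts in every library. That is at or under the floor of 3 counts, so it was not tested, no fold is given and a difference could not be detected at this depth. Among other relatives, EGR4 had 0 to 11 counts in every library. EGR2, named, like EGR4, after its values were seen, had 31 to 60 counts in the HT-29 controls against at most 3 in each treated HT-29 library and at most 7 in each Caco-2 library.

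**Figure D1:**
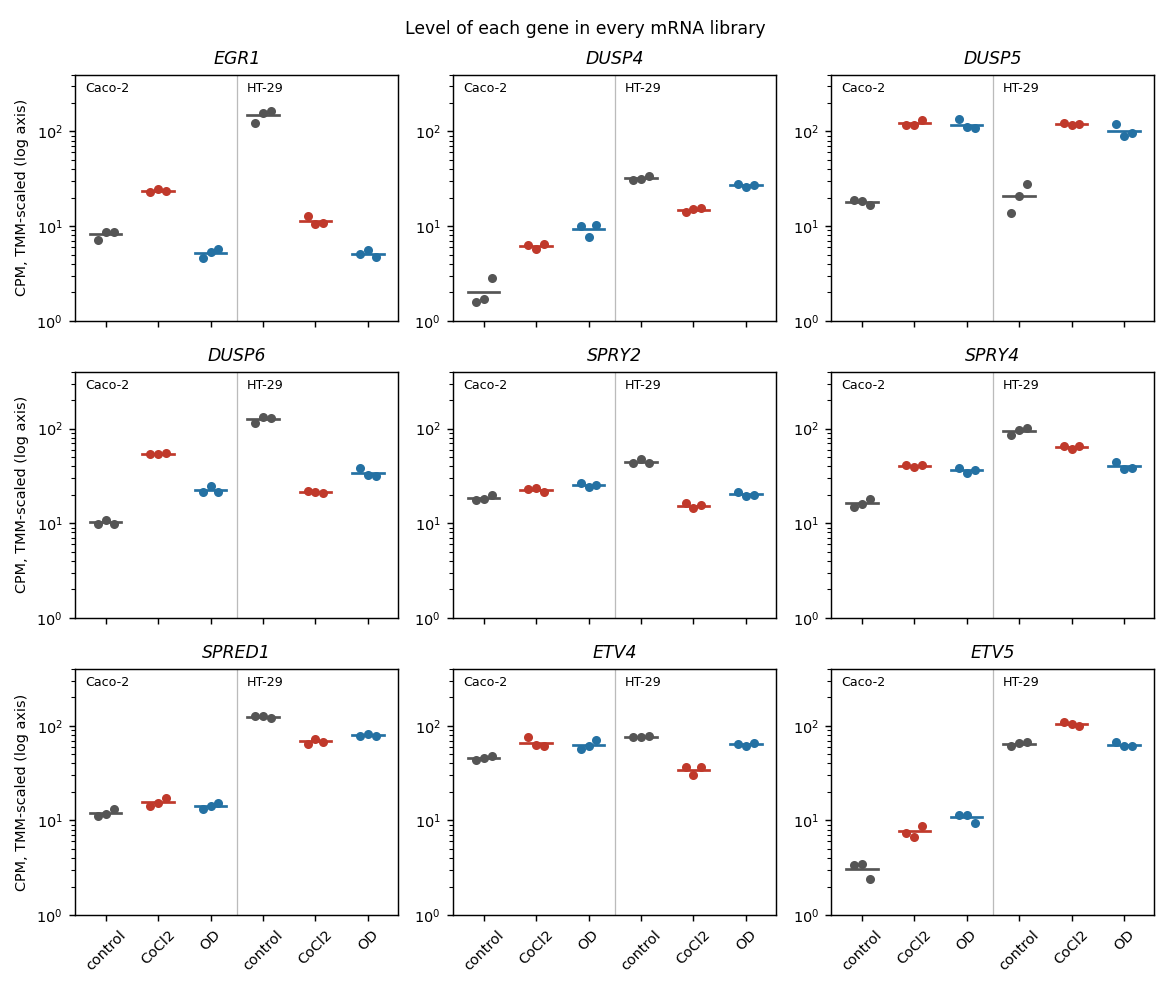
Points are the TMM-scaled CPM of the 3 libraries of each group on a log axis and bars are group means, for the 9 genes tested (Caco-2 left, HT-29 right of the grey line). In the HT-29 controls EGR1, DUSP6 and SPRED1 have the highest means (148, 126 and 124 CPM), and the libraries of DUSP6 and SPRED1 overlap. DUSP5 is raised by both agents in both lines, from 17.9 and 20.7 CPM to between 102 and 123 CPM.

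The 3 phosphatases behaved differently from one another. DUSP6 (chromosome 12, 89347235 to 89352501, minus strand), a cytoplasmic phosphatase selective for ERK, stood in Caco-2 at 9.90, 10.8 and 9.90 CPM in the controls, 53.6, 53.7 and 56.0 CPM with CoCl2 and 21.6, 24.5 and 21.4 CPM with OD. In HT-29 its levels were 114, 132 and 131 CPM in the controls, 22.0, 21.4 and 20.8 CPM with CoCl2 and 38.2, 32.6 and 31.9 CPM with OD. Its groups did not overlap in either line, and controls were the lowest group in Caco-2 and the highest in HT-29. DUSP6 rose in Caco-2 by 2.42 (SE 0.10, FDR = 5.44e-16, edgeR) with CoCl2 and by 1.14 (SE 0.11, FDR = 3.74e-09) with OD on the log2 scale. In HT-29 the log2 change was -2.56 (SE 0.07) with CoCl2 and -1.88 (SE 0.06) with OD. An antisense long noncoding RNA shares 1105 exonic bases with DUSP6. It was not found in the count table under its GENCODE release 44 name, and other names were not searched for. The use of strand in counting is not given in the sources used here, so a share of DUSP6 reads could come from this RNA.

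DUSP5 (chromosome 10, 110497907 to 110511533, plus strand), the nuclear ERK phosphatase, was higher with both agents in both lines. In Caco-2 it stood at 18.7, 18.3 and 16.7 CPM in the controls, 118, 116 and 133 CPM with CoCl2 and 137, 111 and 108 CPM with OD. In HT-29 the values were 13.7, 20.7 and 27.6 CPM in the controls, 122, 118 and 121 CPM with CoCl2 and 120, 89.4 and 97.0 CPM with OD. Every treated library lay above every control of its line, and the HT-29 controls spread from 13.7 to 27.6 CPM. The rise in Caco-2 was 2.77 with CoCl2 (SE 0.10, FDR = 2.46e-17, edgeR) and 2.72 with OD (SE 0.10, FDR = 1.22e-16). In HT-29 the log2 change was 2.49 (SE 0.12) with CoCl2 and 2.26 (SE 0.12) with OD, and over the libraries left out in turn these lay between 2.29 and 2.79 and between 2.06 and 2.55.

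DUSP4 (chromosome 8, 29333064 to 29350684, minus strand), an inducible nuclear phosphatase, was scarce in Caco-2, at 1.57 to 2.84 CPM (25 to 41 counts) in the controls, 5.67 to 6.44 CPM with CoCl2 and 7.75 to 10.3 CPM with OD. In HT-29 it ran from 30.4 to 34.1 CPM in the controls, 14.1 to 15.6 CPM with CoCl2 and 26.2 to 28.0 CPM with OD. Within each line no groups overlapped, with the lowest levels in Caco-2 controls and the highest in HT-29 controls. DUSP4 rose in Caco-2 by 1.61 (SE 0.22, FDR = 7.33e-07, edgeR) with CoCl2 and by 2.21 (SE 0.21, FDR = 4.78e-09) with OD. Its log2 change in HT-29 was -1.11 (SE 0.08) with CoCl2 and -0.25 (SE 0.07) with OD.

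Of SPRY2, SPRY4 and SPRED1, which restrain signalling near RAS and RAF, SPRY4 alone passed the call rule in Caco-2, with both agents. All 3 were lower in treated HT-29 than in its controls. SPRY4 (chromosome 5, 142310427 to 142326455, minus strand) stood in Caco-2 at 14.9, 15.8 and 17.9 CPM in the controls, 41.4, 39.2 and 41.2 CPM with CoCl2 and 38.3, 33.9 and 36.8 CPM with OD. In HT-29 it stood at 84.8, 97.7 and 102 CPM in the controls, 65.4, 60.3 and 65.8 CPM with CoCl2 and 44.2, 37.4 and 38.2 CPM with OD. Here too controls were the lowest group in Caco-2 and the highest in HT-29, without overlap. SPRY4 rose in Caco-2 by 1.33 (SE 0.10, FDR = 3.30e-11, edgeR) with CoCl2 and by 1.17 (SE 0.10, FDR = 1.02e-09) with OD. In HT-29 it was the one gene of this group with the larger reduction under OD, at -1.25 (SE 0.07) against -0.58 (SE 0.07) with CoCl2.

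SPRY2 (chromosome 13, 80335976 to 80341126, minus strand) ran in Caco-2 from 17.8 to 19.7 CPM in the controls, 21.4 to 23.5 CPM with CoCl2 and 24.1 to 26.8 CPM with OD. In HT-29 it ran from 43.0 to 47.7 CPM in the controls, 14.4 to 16.3 CPM with CoCl2 and 19.6 to 21.5 CPM with OD. The Caco-2 log2 changes of 0.29 with CoCl2 (SE 0.10, FDR = 0.0181, edgeR) and 0.45 with OD (SE 0.10, FDR = 0.000726) were under the fold limit, and the first was -0.03 when libraries were scaled by total count alone. In HT-29 the changes were -1.54 (SE 0.07) and -1.14 (SE 0.07).

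SPRED1 (chromosome 15, 38252836 to 38357249, plus strand), which recruits neurofibromin to inactivate RAS, ran in Caco-2 from 11.1 to 13.2 CPM in the controls, 14.3 to 17.4 CPM with CoCl2 and 13.3 to 15.5 CPM with OD. In HT-29 it ran from 120 to 126 CPM in the controls, 64.0 to 73.4 CPM with CoCl2 and 77.8 to 81.3 CPM with OD. In Caco-2 the log2 change was 0.40 with CoCl2 (SE 0.13, FDR = 0.00813, edgeR), under the fold limit, and 0.25 with OD (SE 0.13, FDR = 0.0946), which did not pass. The HT-29 changes were -0.85 (SE 0.05) and -0.65 (SE 0.05).

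The ETS factors parted from each other in HT-29. ETV5 (chromosome 3, 186046314 to 186110318, minus strand) stood in Caco-2 at 3.38, 3.49 and 2.42 CPM in the controls, 7.42, 6.76 and 8.82 CPM with CoCl2 and 11.5, 11.5 and 9.38 CPM with OD. In HT-29 it stood at 61.4, 66.2 and 66.7 CPM in the controls, 109, 105 and 99.7 CPM with CoCl2 and 67.1, 61.8 and 61.1 CPM with OD. Treated Caco-2 libraries all lay above their controls, and in HT-29 the CoCl2 libraries were highest while OD and control overlapped. ETV5 rose in Caco-2 by 1.31 (SE 0.18, FDR = 1.12e-06, edgeR) with CoCl2 and by 1.79 (SE 0.18, FDR = 9.97e-09) with OD. In HT-29 its log2 change was 0.69 (SE 0.05) with CoCl2, which was 0.05 when libraries were scaled by total count alone, and -0.04 (SE 0.05) with OD.

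ETV4 (chromosome 17, 43527844 to 43579620, minus strand) ran in Caco-2 from 44.1 to 47.6 CPM in the controls, 60.7 to 76.2 CPM with CoCl2 and 57.6 to 70.4 CPM with OD. In HT-29 it ran from 75.8 to 78.5 CPM in the controls, 30.2 to 36.8 CPM with CoCl2 and 61.0 to 65.1 CPM with OD. The Caco-2 changes of 0.54 (SE 0.10, FDR = 2.43e-05, edgeR) and 0.46 (SE 0.09, FDR = 0.000277) were under the fold limit. In HT-29 they were -1.16 (SE 0.06) with CoCl2 and -0.28 (SE 0.06) with OD. Exons of ETV4 share 68 bases with the antisense gene DHX8 (1043 to 1934 counts per library), and those of ETV5 share 164 bases with DGKG on the same strand (0 to 286 counts).

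With a call at an FDR under 0.05 and an absolute log2 change over 1, CoCl2 raised 6 of the 9 tested genes in Caco-2 (EGR1, DUSP4, DUSP5, DUSP6, SPRY4 and ETV5) and lowered 0 (all 9 had an unadjusted p under 0.05), against 23.4% of all genes called, 9.13% higher and 14.2% lower. The median log2 change of the 9 genes was 1.33, that of all genes tested -0.03. The CoCl2 libraries lay wholly above the controls for 9 of 9 genes and for 33.7% of all genes, and 9 of 9 had an FDR under 0.05 against 64.7% of all genes. OD raised 5 of them (DUSP4, DUSP5, DUSP6, SPRY4 and ETV5), against 11.7% of all genes called, 4.43% higher and 7.27% lower, with a median of 1.14 beside -0.02 over all genes. The OD libraries lay wholly above the controls for 8 genes (29.6% of all genes) and wholly under them for EGR1 (29.8% of all genes), and 8 of 9 had an FDR under 0.05 against 50.4% of all genes. Scaling by total count alone lowered the median of all genes to -0.35 and -0.18, and it took ETV5 with CoCl2 (0.99) and DUSP6 with OD (0.99) just under the fold limit. On the deposited log2 values limma kept neither DUSP4 (0.52) nor ETV5 (0.58) over the fold limit with CoCl2, and with OD only DUSP5. Both comparisons use the same 3 control libraries, as do the pair in HT-29. The genes were chosen with earlier results of these data known. The Caco-2 counts, shares and medians therefore describe the list and do not test it.

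By the same rule 1 gene (DUSP5) was higher and 5 (EGR1, DUSP4, DUSP6, SPRY2 and ETV4) were lower in HT-29 with CoCl2, where 41.3% of all genes were called (17.4% higher, 23.9% lower), and the median change was -1.11 beside -0.03 over all genes. With OD 1 gene (DUSP5) was higher and 4 (EGR1, DUSP6, SPRY2 and SPRY4) were lower, where 17.1% of all genes were called (9.5% higher, 7.57% lower), with a median of -0.65 beside 0.01. Treated and control libraries did not overlap for 9 genes with CoCl2 (83.2% of all genes) and for 8 with OD (71.1%), and an FDR under 0.05 was reached by 82.8% and 68.8% of all genes. Nothing is read from these shares, for the reason given above. With library totals alone the HT-29 CoCl2 median over all genes was -0.66, and 1 gene was then higher and 7 lower.

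**Figure D2:**
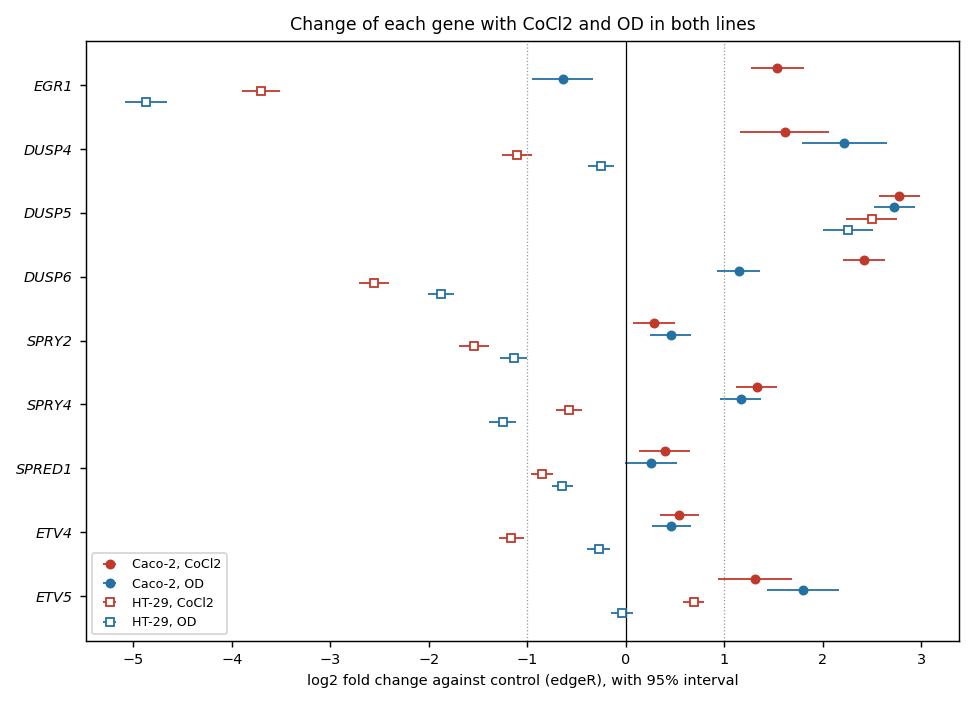
Log2 fold change against control with its 95% interval for each of the 9 genes, from edgeR, for CoCl2 (red) and OD (blue) in Caco-2 (filled circles) and HT-29 (open squares); dotted lines mark the fold limit of 1. DUSP5 lies between 2.26 and 2.77 in all 4 comparisons, whereas DUSP6 runs from -2.56 to 2.42.

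CoCl2 and OD, compared directly in Caco-2, differed by the call rule for EGR1 and DUSP6, both higher with CoCl2, against 11.7% of all genes called (5.21% higher, 6.44% lower). The groups did not overlap for 6 of the 9 genes and for 52.8% of all genes, and 4 of 9 had an FDR under 0.05 against 49.6% of all genes. EGR1 was higher with CoCl2 by 2.18 (SE 0.14, 4.53-fold, FDR = 4.59e-12, edgeR) and DUSP6 by 1.27 (SE 0.09, 2.42-fold, FDR = 8.82e-11). DUSP4 and ETV5 leaned the other way, at -0.61 (SE 0.18, FDR = 0.00689) and -0.48 (SE 0.16, FDR = 0.0132), under the fold limit. For DUSP5 the difference of 0.05 had a 95% interval from -0.13 to 0.23 and an FDR of 0.657. The remaining 4 genes had FDR values of 0.160 to 0.492, with intervals for SPRY2 from -0.38 to 0.04, SPRY4 from -0.03 to 0.35, SPRED1 from -0.11 to 0.40 and ETV4 from -0.11 to 0.27. Each agent was used at 1 dose, 300 µM and 5 µM, so the agents were not compared at matched doses.

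In HT-29 EGR1 was the one gene over the fold limit between the agents, at 1.17 (SE 0.15) higher with CoCl2, where 29.9% of all genes were called (10.8% higher, 19.2% lower). The agents did not overlap for 8 of 9 genes, against 78.9% of all genes, and 77.7% of all genes had an FDR under 0.05. DUSP4 (-0.86, SE 0.08), DUSP6 (-0.68, SE 0.08) and ETV4 (-0.89, SE 0.06) were lower with CoCl2 than with OD, and ETV5 (0.72, SE 0.05) and SPRY4 (0.67, SE 0.07) were higher. DUSP6 therefore stood above its OD level with CoCl2 in Caco-2 and under it in HT-29. Scaling by total count alone lowered these differences by about as much as the median of all genes, which it moved from -0.07 to -0.56; EGR1 was then at 0.67 and DUSP4, DUSP6 and ETV4 were over the fold limit on the lower side.

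Before treatment the genes stood far apart in the lines. On CPM scaled over all 18 libraries, EGR1 was at 8.02 ± 0.903 (SD, n = 3) in Caco-2 and 155 ± 23.4 in HT-29 controls, a log2 difference of 4.28 (SE 0.11). Of the other 8 tested genes 6 were higher in HT-29 by more than the fold limit: ETV5 by 4.47 (SE 0.11), DUSP4 by 4.09 (SE 0.14), DUSP6 by 3.71 (SE 0.09), SPRED1 by 3.46 (SE 0.08), SPRY4 by 2.64 (SE 0.09) and SPRY2 by 1.36 (SE 0.08). ETV4 was under the fold limit at 0.85 (SE 0.08). Counting EGR1, 7 of 9 genes were over both limits, where 45.8% of all genes were called, 21.6% higher and 24.2% lower. The 6 control libraries separated without overlap, higher in HT-29, for 8 of the 9 genes and for 40.8% of all genes, and 79.1% of all genes had an FDR under 0.05. Nothing is read from these shares, since HT-29 values had a part in choosing the genes. DUSP5 was the exception: its controls overlapped, and the difference of 0.33 (SE 0.15) was 0.04 without the third HT-29 control and 0.55 without the first.

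**Figure D3:**
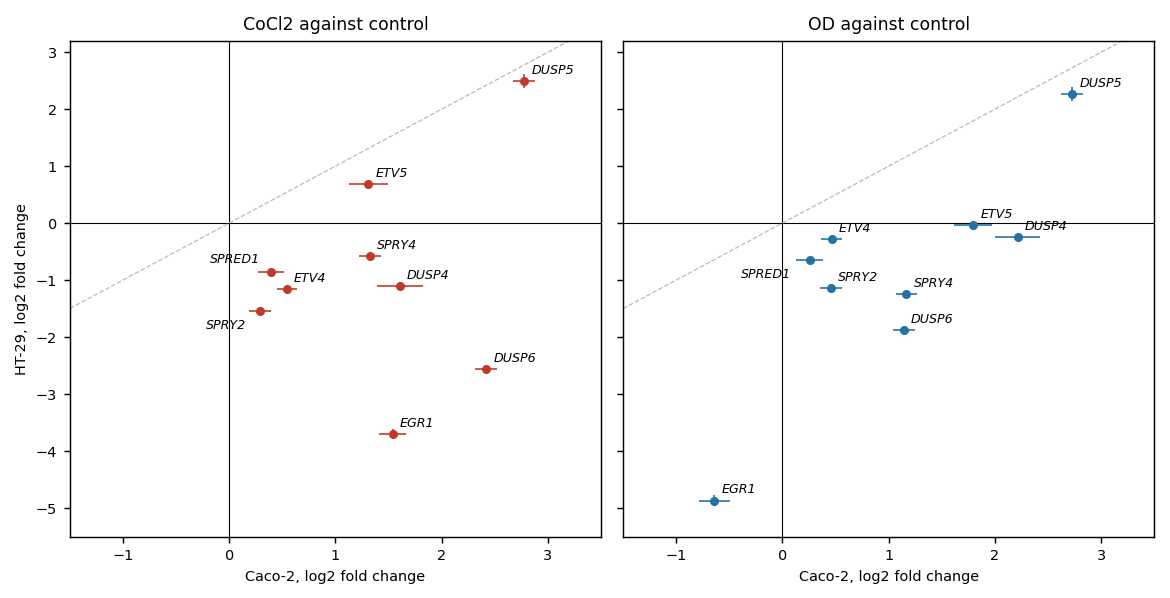
Each gene's log2 change in HT-29 against its change in Caco-2, with CoCl2 on the left and OD on the right; bars are 1 SE and the dashed line marks equal change in both lines. With each agent 7 of the 9 genes have changes of opposite sign, DUSP5 lies near the line of equal change, and EGR1 lies lowest.

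The responses differed most between the lines for EGR1 and DUSP6. Fitted over all 18 libraries, the HT-29 change minus the Caco-2 change was -5.35 (SE 0.16) for EGR1 and -5.08 (SE 0.12) for DUSP6 with CoCl2, and -4.25 (SE 0.20) and -3.04 (SE 0.13) with OD. DUSP5 differed least, by -0.38 (SE 0.19) with CoCl2 and -0.47 (SE 0.19) with OD, which became -0.08 and -0.18 without the third HT-29 control. The other 6 genes lay between -0.73 (ETV5) and -2.82 (DUSP4) with CoCl2 and between -0.75 (ETV4) and -2.48 (DUSP4) with OD. With CoCl2 the signs were opposite for all but DUSP5 and ETV5, and with OD for all but DUSP5 and EGR1. The sign of ETV5 with OD in HT-29 rests on a change whose 95% interval, from -0.15 to 0.08, includes 0. These differences are given without a p, as HT-29 values had a part in choosing the genes.

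Per transcript length, the deposited values gave the order of the levels as RPKM, which divides reads by transcript length and library size. In the HT-29 controls EGR1 was highest at 48.7 ± 6.99 (SD, n = 3), before DUSP6 at 33.6 ± 2.7 and ETV4 at 22.6 ± 0.368, and these 3 did not overlap with one another. SPRED1, SPRY4 and SPRY2 followed between 16.5 and 14.4 RPKM with overlapping libraries. DUSP4 was lowest at 4.55 ± 0.259. In the Caco-2 controls ETV4 led at 13.2 ± 0.512, followed by DUSP5 at 7.20 ± 0.437 and SPRY2 at 5.88 ± 0.312. EGR1 was in the middle of the order at 2.65 ± 0.296, its libraries overlapping with those of DUSP6 (2.7 ± 0.139) and SPRY4 (2.52 ± 0.238). DUSP5 took the first place in all 4 treated groups, at 40.8 to 48.0 RPKM, and EGR1 dropped to eighth place with CoCl2 and ninth with OD in HT-29, at 3.52 ± 0.364 and 1.65 ± 0.150.

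**Figure D4:**
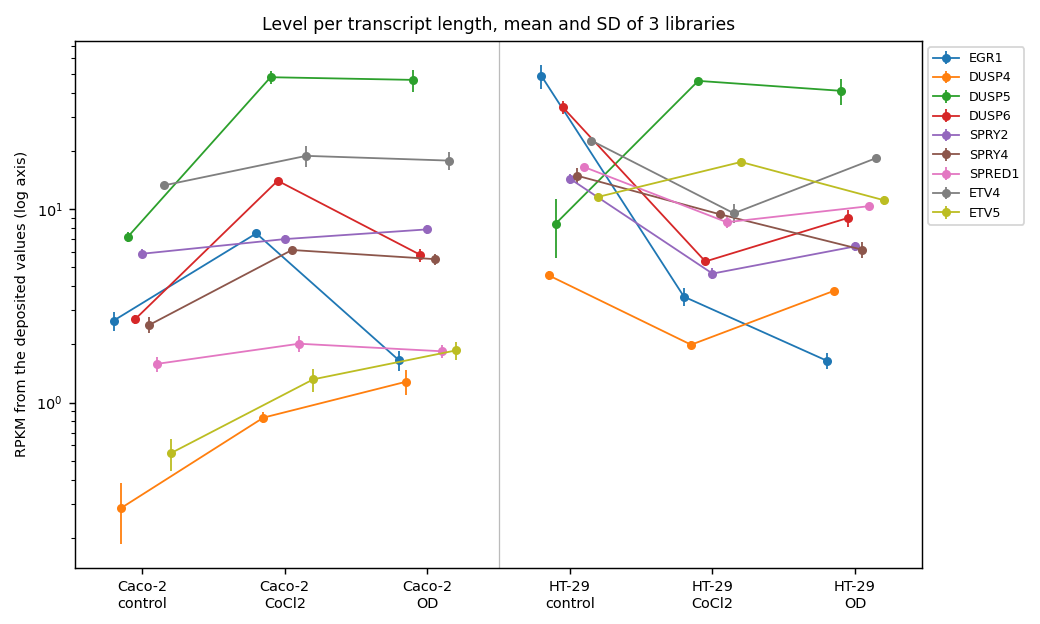
RPKM from the deposited values on a log axis, as the mean and SD of 3 libraries per group, for the 9 tested genes; lines join the groups of a line. DUSP5 is the highest gene in all 4 treated groups, and EGR1 passes from 48.7 RPKM in HT-29 controls to 1.65 RPKM with OD.

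The profile nearest to that of EGR1 belonged to DUSP6. Likeness was the root mean square difference between the log2 group means of 2 genes over the 6 groups, each centred on its own mean, among 12871 genes, for which the median was 1.74. DUSP6 was first at 0.969, followed by RGS2 (1.00), a regulator of G protein signalling, EDN1 (1.02), which encodes endothelin-1, HBEGF (1.02), an EGF receptor ligand, and WDR35 (1.08), a component of cilia. With OD in Caco-2, however, DUSP6 rose (1.14) while EGR1 was lower (-0.64). SPRY4 was placed 82nd, SPRY2 138th, ETV4 1451st, SPRED1 2117th and DUSP4 4537th, whereas ETV5 and DUSP5 were placed 11227th and 12274th. These distances rest on 6 group means and are a description.

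Genes of the same pathway are given from 4 further lists, beside the median log2 change of all genes, which lay between -0.03 and 0.01 in the 4 comparisons with control. In the RAS, RAF, MEK and ERK chain itself 2 of 16 genes passed the call rule in Caco-2 with CoCl2, against 23.4% of all genes: RPS6KA3, a kinase that ERK activates, fell by 1.56 (SE 0.10) on the log2 scale, and MAP2K1, which encodes MEK1, rose by 1.16 (SE 0.09). The median of the chain was 0.30, and with OD 1 of 16 passed (MAP2K1, 1.03, SE 0.09), against 11.7% of all genes, with a median of 0.27. That count was 0 without the first control or the first OD library, and 2 without the second control, the second OD or the third OD library. In HT-29 with CoCl2, MAP2K1 (2.1) and GRB2 (1.30), an adaptor of growth factor receptors, were higher and KSR1 (-1.13), a scaffold of the chain, was lower, with a median of 0.36 and 41.3% of all genes called. With OD 0 of 16 passed the rule by edgeR, DESeq2 or limma, against 17.1% of all genes by edgeR, although 13 had an unadjusted p under 0.05.

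Relatives of the feedback genes came next, and Caco-2 had 11 of them tested while HT-29 had 12. In Caco-2 3 rose with CoCl2 (DUSP1 by 2.93, DUSP8 by 1.26 and SPRY1 by 1.01) and 2 with OD (DUSP8 by 1.97 and DUSP1 by 1.61), and 0 fell by the rule, where 23.4% and 11.7% of all genes were called. The medians were 0.72 and 0.46. DUSP1 and DUSP8 encode phosphatases that act mainly on the stress kinases p38 and JNK. In HT-29 1 was higher with CoCl2 (DUSP10, 1.83) and 4 lower, among them ETV1 (-2.79), DUSP2 (-1.83) and the scarce EGR2 described above, with a median of -0.22, and these 5 of 12 stand beside 41.3% of all genes called. With OD 2 were lower, SPRY1 at -1.36 and EGR2, with a median of -0.14, where 17.1% of all genes were called.

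Partners and regulators of EGR and ETS factors (SRF, ELK1, ELK3, ELK4, NAB1, NAB2, ERF and CIC) were called in 0 of 8 cases in Caco-2 with either agent by edgeR, DESeq2 or limma, while 5 with CoCl2 and 6 with OD had an unadjusted p under 0.05. Without the first control library 1 of 8 was called with CoCl2. The shares of all genes called were 23.4% and 11.7%. In HT-29 with CoCl2 the repressor CIC was higher (1.53) and the EGR corepressor NAB1 lower (-1.34), where 41.3% of all genes were called, and with OD, where 17.1% were, 0 of 8 were called by edgeR, DESeq2 or limma, 7 having an unadjusted p under 0.05. SRF was called in no comparison with control. The medians were 0.31, 0.53, -0.01 and 0.03 for Caco-2 with CoCl2 and OD and HT-29 with CoCl2 and OD.

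Of 6 other ERK-responsive genes 4 rose in Caco-2 with CoCl2, led by FOSL1 (5.15, SE 0.19), an AP-1 subunit, EPHA2 (2.40, SE 0.09), an ephrin receptor, and IER3 (1.90, SE 0.23), and 3 rose with OD (EPHA2 by 2.08, FOSL1 by 1.87 and CCND1, which encodes cyclin D1, by 1.39). The medians were 1.57 and 0.89, and 23.4% and 11.7% of all genes were called. In HT-29 with CoCl2 FOSL1 was higher (2.73) while CCND1 (-2.52) and PHLDA1 (-1.94) were lower, and with OD EPHA2 was lower (-1.33), with medians of -0.57 and -0.67, where 41.3% and 17.1% of all genes were called. FOSL1 thus went with DUSP5 and not with EGR1 in HT-29 under CoCl2, at 15.5 ± 2.28 CPM in the controls and 105 ± 4.20 CPM with CoCl2 (SD, n = 3).

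**Figure D5:**
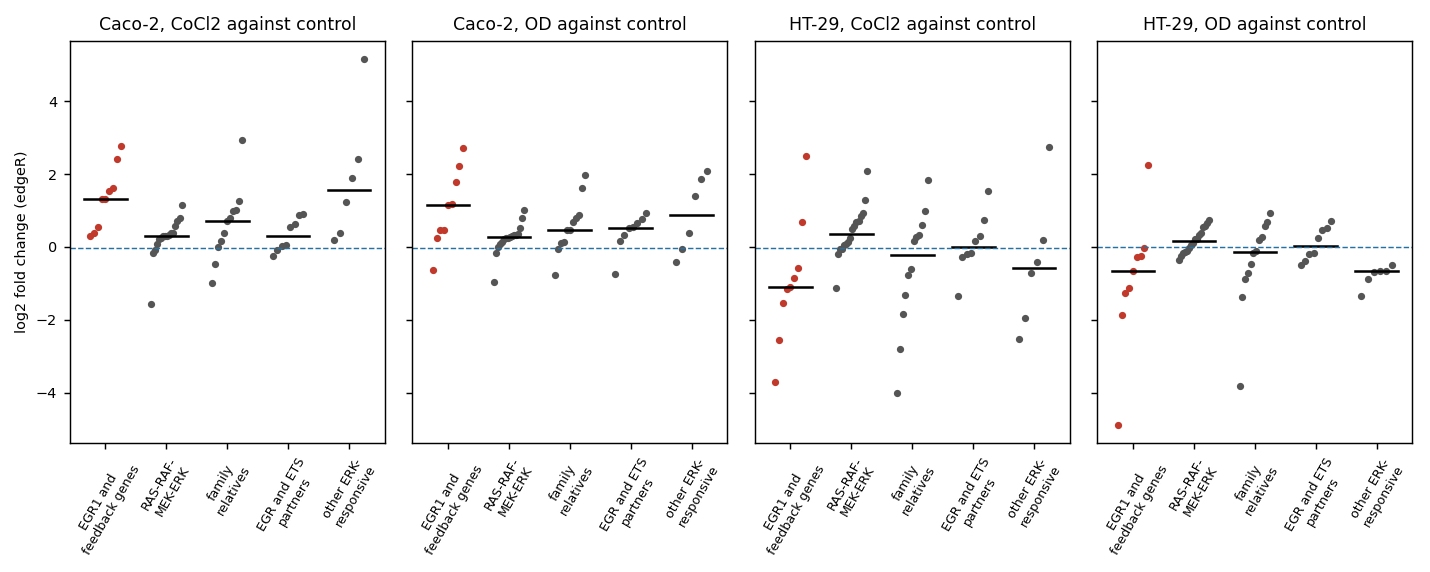
Log2 fold change of every tested gene in 5 lists (EGR1 and the feedback genes in red), sorted within each list, in 4 comparisons with control; black bars are list medians and the dashed blue line is the median of all genes. EGR1 and the feedback genes have medians of 1.33 (CoCl2) and 1.14 (OD) in Caco-2, against -1.11 (CoCl2) and -0.65 (OD) in HT-29.

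The cell type labels were checked against markers. All 7 epithelial markers were over the floor in every group, and 7 enterocyte markers summed to 2921 to 4510 CPM in Caco-2 against 15.6 to 33.4 CPM in HT-29. Within Caco-2 the enterocyte sum was 3809 to 4510 CPM with CoCl2 and 2921 to 3325 CPM in the controls, carried by APOA1 (2545 CPM in the controls, 3721 CPM with CoCl2), and APOA4 was also higher. The means of the other 5 markers were lower with CoCl2, such as SI from 289 to 115 CPM and FABP1 from 222 to 132 CPM. Within HT-29 the sum was highest in the controls. Fibroblast and endothelial markers summed to at most 30.0 and 12.5 CPM. Of 4 leukocyte markers LYZ alone was abundant, at about 1096 CPM in HT-29 controls, while PTPRC, which defines leukocytes, had 0 to 2 counts. Of the HIF-responsive check genes 5 of 5 tested rose in Caco-2 with CoCl2 and 4 of 5 with OD, and in HT-29 6 of 6 and 3 of 6 were called higher. TMM factors were lowest with CoCl2, at a mean of 0.770 in HT-29 and 0.894 in Caco-2 against 1.19 and 1.12 in the controls. Changes with libraries scaled by total count alone, without these factors, are given for several of the genes. The part of the marker differences in the changes of the 9 genes was not tested.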

How the data were processed

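The authors trimmed single-end reads of stranded mRNA libraries with cutadapt (2.10), aligned them with STAR (2.7.5b) to GRCh38.p13 and counted genes on GENCODE release 34, per the study's methods and the submitters' processing notes. The study's methods describe the Caco-2 cells, and for HT-29 the labels were used. The counting tool is not given in the sources used here. The authors deposited whole-number counts per gene and a table of log2 values, which hold log2 of RPKM plus 1 with library sizes scaled by TMM within each line. The 18 mRNA libraries were grouped by their labels, and the miRNA files were not used here. The study's methods call the Caco-2 replicates biological, and the labels do not say whether HT-29 replicates were separate cultures.

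Counts were fitted with edgeR (4.0.16) in R (4.3.3): TMM scaling, filterByExpr and the quasi-likelihood test, two-sided, with 1 coefficient per group, over the 9 libraries of a line or, for comparisons of the lines, over all 18. FDR is the Benjamini-Hochberg value over all genes tested, and calls needed an FDR under 0.05 and an absolute log2 change over 1. Intervals are at 95%. The script was tested on simulated data with known changes. Alternatives were scaling by DESeq2 size factors or by total count, no filter, DESeq2 (1.42.0), FDR alone, limma (3.58.1) on the deposited log2 values or with a pseudocount of 0.1, a replicate block, 1 joint fit and each library left out. Replicates of a group differed by more than sampling noise, so none was counted as a duplicate, and p-values measure only the spread between these samples of a line, which in HT-29 may be technical. Coordinates are from GENCODE release 44 (GRCh38) and promoters from RefSeq.

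All 10 genes were named by rule, and from each other list at most the 3 called genes with the largest change and a mean count of at least 20. Exceptions are EGR2 and EGR4, named after their values were seen, and the partners and regulators, which are listed in full. The members and lists were chosen with earlier results of these data known.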

Additional observations from a re-analysis of the deposited data

Results flagged for a closer look

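For 7 genes every treated library lay on one side of its controls in Caco-2 and on the opposite side in HT-29, with 1 or both agents, and the difference between the lines was not tested. The values are the log2 change in HT-29 minus that in Caco-2. With CoCl2 they were -5.35 for EGR1, -5.08 for DUSP6, -2.82 for DUSP4, -2.01 for SPRY4, -1.93 for SPRY2, -1.81 for ETV4 and -1.36 for SPRED1. With OD they were -3.04 for DUSP6, -2.48 for DUSP4, -2.43 for SPRY4, -1.61 for SPRY2, -0.92 for SPRED1 and -0.75 for ETV4.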

How the results depend on the processing

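The counts of called genes (6, 5 and 2 in Caco-2 for CoCl2, OD and CoCl2 against OD, then 6, 5 and 1 in HT-29, and 7 between the controls) were the same in each fit that left out 1 library. With FDR alone they were 8 for OD in Caco-2, 4 for CoCl2 against OD in Caco-2, 8 for OD in HT-29 and 9 for CoCl2 against OD in HT-29. With limma on the deposited log2 values, whose pseudocount of 1 shrinks low genes, 1 gene was called for OD in Caco-2, where DUSP4, DUSP6, SPRY4 and ETV5 lay between 0.83 and 0.89, and 0 for CoCl2 against OD in HT-29. The limma counts for CoCl2 against control were 4 in Caco-2 and 5 in HT-29. DESeq2 gave the same 7 counts. With total counts alone 3 genes were called for CoCl2 against OD in HT-29, all lower. Genes with opposite signs in the lines numbered 7 with each agent, and 6 with CoCl2 under total counts alone. Scaling by total counts turned SPRY2 with CoCl2 in Caco-2 to -0.032 and, for CoCl2 against OD in Caco-2, DUSP5 to -0.11, SPRY4 to -0.0061, SPRED1 to -0.029 and ETV4 to -0.088. In HT-29 it turned DUSP5 for CoCl2 against OD to -0.26. Leaving out 1 library moved DUSP5 in that comparison in Caco-2 between -0.015 and 0.17 and ETV4 between -0.023 and 0.17. No other setting changed the sign of a log2 change of the 9 genes.

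Over all genes, calls for CoCl2 and OD in Caco-2, then in HT-29, numbered 3747, 1876, 6524 and 2699. They were 1098, 381, 2520 and 744 with limma on the deposited values, 2116, 878, 3893 and 1295 with a pseudocount of 0.1, and 10370, 8084, 13097 and 10876 with FDR alone. With total counts alone, 870 of 4416 calls for CoCl2 in Caco-2 were higher (1464 of 3747 otherwise), and 1295 of 7545 in HT-29 (2749 of 6524 otherwise).

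Same-numbered replicates did not deviate together: correlations ran from -0.083 to 0.094 in Caco-2 and from -0.047 to 0.030 in HT-29. No pairing was therefore used in the main fits, although these correlations cannot show whether same-numbered cultures were handled together. With the replicate block the counts were again 6, 5, 2, 6, 5, 1 and 7. Depth limits EGR3 and the Caco-2 values of DUSP4 and ETV5, which rest on 25 to 58 counts per control library.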
